A study of Caenorhabditis elegans with 12 samples.

Results

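The 6 genes described here, hsp-16.2, hsp-16.41, hsp-17, hsp-12.3, hsp-12.6 and hsp-43, encode small heat shock proteins of the nematode Caenorhabditis elegans. They were taken by gene symbol from the annotation of the array, where each had 1 probe set with a single symbol, so that 6 of 22548 probe sets and 6 of 17118 named genes are described. RNA of whole wild-type young adult hermaphrodites, taken at 3 days from an age-synchronized culture, was measured on 12 Affymetrix arrays in 4 groups of 3. The Control group stayed for 24 h at 20 °C in K-medium, a solution of potassium and sodium chloride, without food. The TiO2 group was kept in the same way with titanium dioxide, at a dose that the sources used here do not state. The UV group was irradiated with ultraviolet light for 4 h and then spent 20 h in the incubator of the other groups, and the UV+TiO2 group received both agents. All 4 groups, the controls included, were therefore unfed for the whole period, and RNA was taken 20 h after irradiation ended. The wavelength and dose of the UV light are not given in the sources used here.

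Small heat shock proteins share an alpha-crystallin domain, assemble into oligomers and bind unfolding proteins without using ATP, which keeps those proteins in a state from which Hsp70 chaperones can refold them. In C. elegans the genes fall into different modes of use. The hsp-16 genes are nearly silent in unstressed worms and are switched on by the heat shock factor HSF-1, whereas the Hsp12 proteins, the smallest of the family, are made without heat stress during development and lacked chaperone activity in vitro. hsp-12.6 is a known target of DAF-16, the forkhead factor of insulin signalling, and contributes to the long life of insulin receptor mutants. In the RefSeq gene order hsp-16.2 and hsp-16.41 are direct neighbours on chromosome V and hsp-12.3 and hsp-12.6 are direct neighbours on chromosome IV. hsp-17 also lies on chromosome V and hsp-43 lies on the X chromosome.

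Values are RMA log2 expression values, in which 1 unit is a 2-fold difference in probe set intensity. Across probe sets the correlation was 0.987 to 0.998 between arrays of the same group and 0.931 to 0.944 between an array with UV and an array without. The labels do not tell whether replicate arrays hold worms of separate cultures, and the p-values therefore cover the spread between these arrays alone, part or all of which may be technical. The defining markers of adult hermaphrodites were present in the controls, with mean log2 values of 12.78 for the yolk protein gene vit-2, 12.14 for the yolk receptor gene rme-2, 11.74 for the adult collagen gene col-19 and 9.34 for the sperm gene msp-3. Rose and fell are used here of a limma adjusted p under 0.05, adjusted over all probe sets.

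After UV alone the 6 genes parted into groups that moved in opposite directions. hsp-16.2, hsp-16.41 and hsp-17 rose and hsp-12.3, hsp-12.6 and hsp-43 fell, and none failed the test. For each of the 6 genes the 3 UV arrays lay wholly above or wholly below the 3 control arrays. How many of all probe sets were without overlap, here or in the later comparisons, was not counted. Over all probe sets 50.6% passed in this comparison, 27.5% higher and 23.1% lower, so that passing is in itself common here and the sizes carry more information. The median log2 difference of all probe sets was 0.11, which is the shift against which the single differences stand. That of the 6 genes was −0.30, which lies between the rises and the falls and describes none of the genes.

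The largest rise was in hsp-16.2, the member most used as a reporter of heat shock. Its log2 values were 7.79, 7.48 and 7.20 in the control arrays and 9.74, 9.61 and 9.44 in the UV arrays. The lowest UV array stood well above the highest control array. hsp-16.2 rose 4.30-fold (log2 difference 2.11, 95% interval 1.76 to 2.45, limma adjusted p = 2.7e-07), and 99.8% of probe sets had a lower difference. Its neighbour hsp-16.41, which is transcribed away from hsp-16.2 from the shared upstream region, had log2 values of 7.14, 7.15 and 6.45 in control and 8.91, 8.69 and 8.34 after UV. Control replicate 3 was the low array of its group. On the control arrays hsp-16.2 lay at percentiles 58.7 to 64.3 of all probe sets and hsp-16.41 at 47.1 to 57.8. Neither was thus among the dim probe sets there. hsp-16.41 rose 3.33-fold (log2 difference 1.74, 95% interval 1.32 to 2.15, limma adjusted p = 8.4e-06). The rise of hsp-17 was much smaller. Its log2 values went from 7.79, 7.60 and 7.56 to 8.28, 8.29 and 8.02, without overlap. That is 1.46-fold (log2 difference 0.55, SE 0.11, limma adjusted p = 0.00109), and 31.2% of all probe sets differed by more in either direction.

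**Figure D1:**
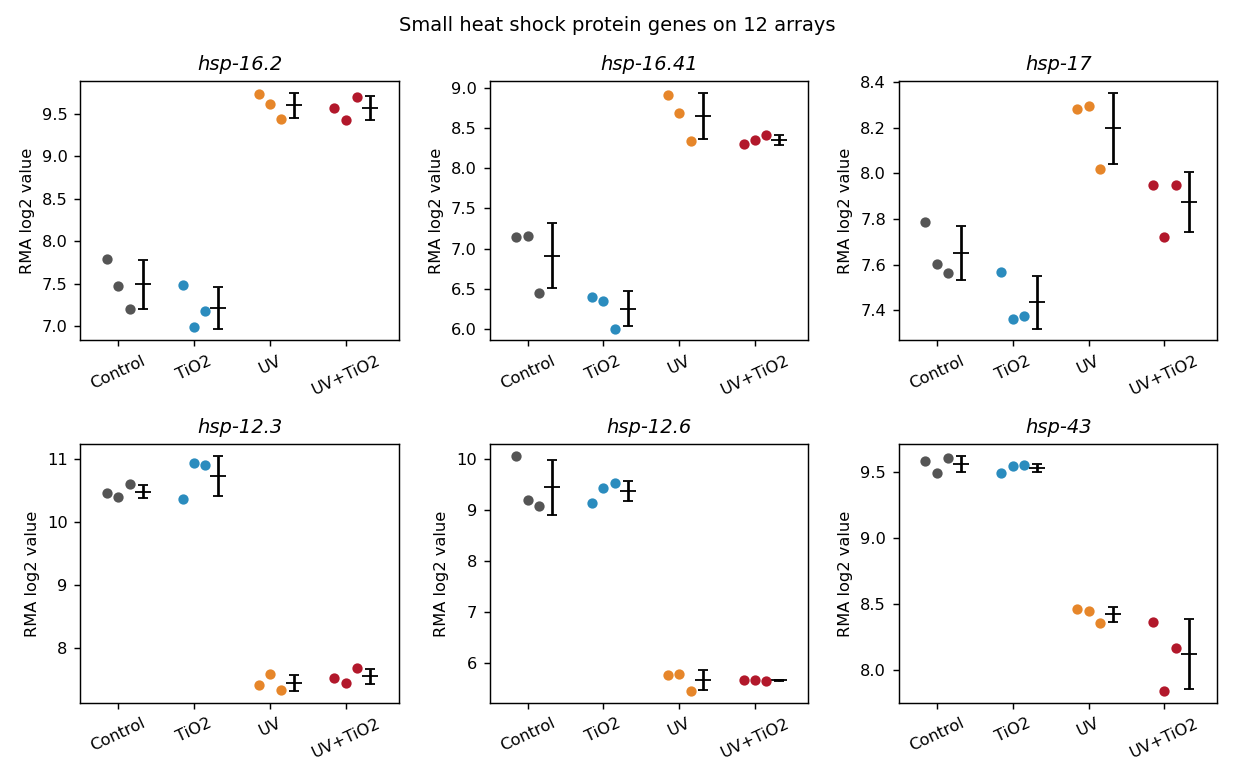
RMA log2 values of the 6 small heat shock protein genes (vertical axis, own scale in each panel) in Control, TiO2, UV and UV+TiO2 worms (horizontal axis). Points are single arrays, replicate 1 to 3 from left to right, and the black mark and bar are the mean and SD of 3 arrays; hsp-16.2 lies at 7.20 to 7.79 in control and 9.44 to 9.74 after UV, and hsp-12.6 at 9.09 to 10.08 and 5.45 to 5.80.

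The falls of the neighbouring Hsp12 genes were larger on the log2 scale than any of the 3 rises. hsp-12.6 had log2 values of 10.08, 9.20 and 9.09 in control and 5.77, 5.80 and 5.45 after UV. Control replicate 1 was the high array, and even the lowest control array was far above every UV array. hsp-12.6 fell to 7.29% of control, a 13.7-fold difference (log2 −3.78, 95% interval −4.24 to −3.32, limma adjusted p = 1.8e-08), and only 0.297% of probe sets differed by more. On the UV arrays it lay between the 29.6th and the 38.7th percentile of all probe sets, against the 80.9th to 88.5th in control. Its level after UV was thus among the dimmer probe sets. Its neighbour hsp-12.3 had log2 values of 10.46, 10.40 and 10.60 in control and 7.41, 7.58 and 7.33 after UV. The arrays of each group lay close together. hsp-12.3 fell 8.27-fold (log2 −3.05, 95% interval −3.36 to −2.74, limma adjusted p = 3.6e-09). hsp-43, a larger and less studied member, went from log2 values of 9.58, 9.49 and 9.61 to 8.46, 8.45 and 8.36 and fell 2.20-fold (log2 −1.14, 95% interval −1.39 to −0.89, limma adjusted p = 3.7e-06). Its probe set is of a type that can detect more than 1 related transcript, unlike those of the other 5 genes.

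**Figure D2:**
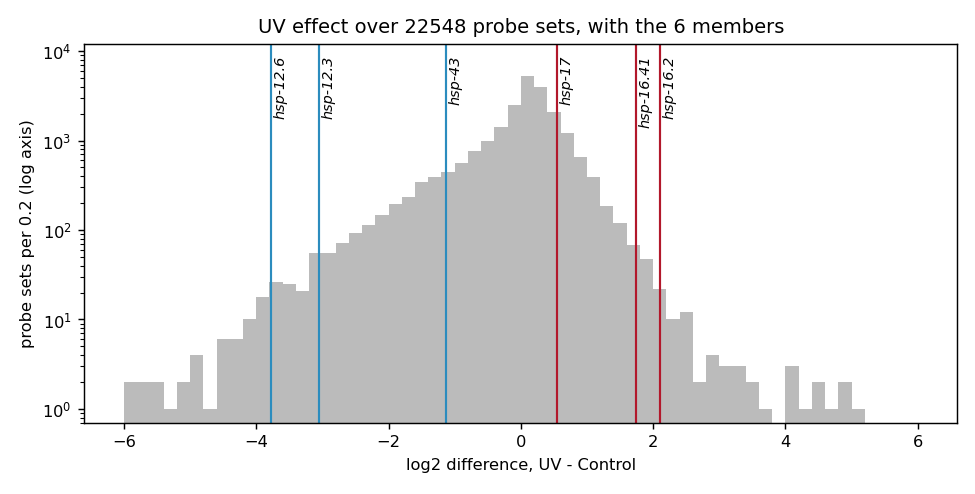
Number of probe sets (vertical axis, log scale) by log2 difference between UV and control (horizontal axis, bins of 0.2) for all 22548 probe sets. Vertical lines mark the 6 small heat shock protein genes, from hsp-12.6 at −3.78 in the lower tail to hsp-16.2 at 2.11 in the upper tail; hsp-17 at 0.55 lies in the body of the distribution.

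The comparison of UV+TiO2 with TiO2 gives the effect of UV in worms that all carried TiO2. Its group means come from 6 arrays outside the comparison of UV with control. Both comparisons take their spread from the same fit to all 12 arrays, so their p-values are not independent. Again hsp-16.2, hsp-16.41 and hsp-17 rose and hsp-12.3, hsp-12.6 and hsp-43 fell, and for none of them did the joint arrays overlap the TiO2 arrays. Of all probe sets 54.5% passed, 32.3% higher and 22.2% lower. hsp-16.2 rose from log2 values of 7.48, 6.99 and 7.18 to 9.57, 9.42 and 9.70, which is 5.09-fold. hsp-16.41 rose from 6.40, 6.35 and 6.01 to 8.30, 8.35 and 8.41, which is 4.28-fold. All 6 values after UV lay above all 6 values without UV for both genes. hsp-17 rose 1.35-fold, from log2 values of 7.57, 7.36 and 7.37 to 7.95, 7.72 and 7.95 (limma adjusted p = 0.00503). Quantile normalization raised this log2 difference from 0.44 to 0.73. Of the falls, hsp-12.3 went from log2 values of 10.37, 10.93 and 10.92 to 7.52, 7.45 and 7.68 (9.14-fold). hsp-12.6 went from 9.15, 9.44 and 9.53 to 5.68, 5.67 and 5.66 (13.1-fold). The 3 joint arrays of hsp-12.6 were almost alike, with an SD of 0.01 against 0.54 in control. hsp-43 went from 9.49, 9.54 and 9.55 to 8.36, 7.84 and 8.16 (2.65-fold), with the widest spread of its 4 groups in the joint arrays. Limma's adjusted p for the 5 genes other than hsp-17 lay between 2.4e-09 for hsp-12.3 and 1.6e-06 for hsp-16.41.

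The interaction asks whether UV acted differently with and without TiO2, and none of the 6 genes passed it by limma or had an unadjusted p under 0.05. Over all probe sets the percentage called was 0. The difference between both UV effects, on the log2 scale, was 0.24 for hsp-16.2 (95% interval −0.24 to 0.73), 0.36 for hsp-16.41 (−0.22 to 0.95) and −0.11 for hsp-17 (−0.44 to 0.23). For hsp-12.3 it was −0.14 (−0.58 to 0.29), for hsp-12.6 it was 0.07 (−0.57 to 0.72) and for hsp-43 it was −0.27 (−0.62 to 0.08). These intervals reach a 1.93-fold difference for hsp-16.41 and 1.65-fold for hsp-16.2, so equal effects are not shown.

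**Figure D3:**
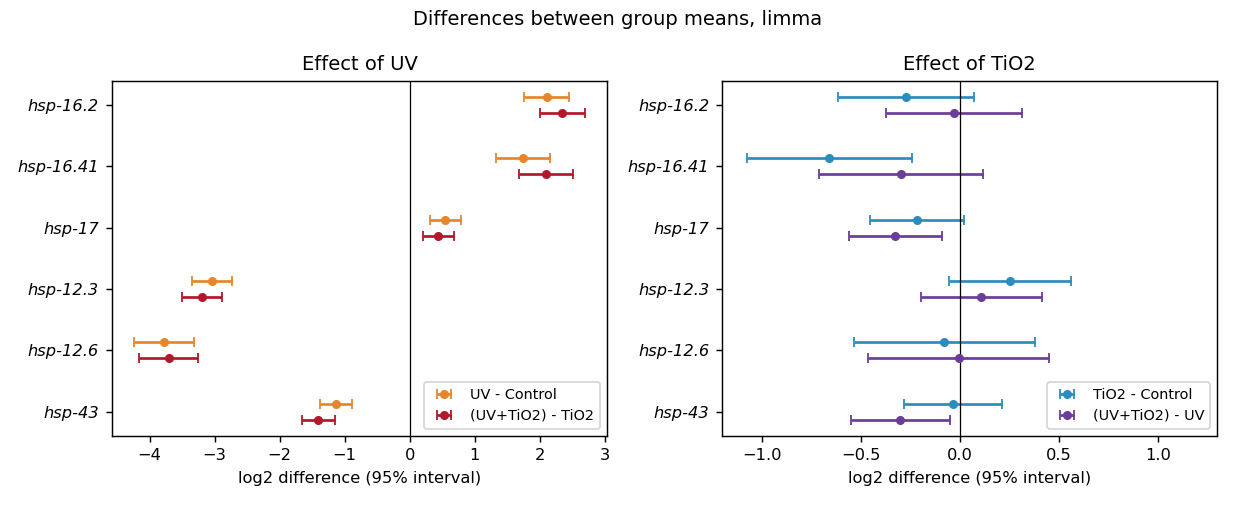
Log2 differences between group means (horizontal axes, points) with 95% intervals from limma (bars) for the 6 genes (vertical axes). Left, the UV effect without and with TiO2, where the points of a gene lie on the same side of 0; right, the TiO2 effect without and with UV on a narrower scale, where all points lie between −0.66 and 0.25.

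Against control, the joint exposure gave hsp-16.2 a 4.21-fold and hsp-16.41 a 2.71-fold rise, and hsp-12.3, hsp-12.6 and hsp-43 fell 7.67-fold, 13.8-fold and 2.71-fold. Of all probe sets 54.5% passed, 31.9% higher and 22.6% lower. This comparison shares its control arrays with that of UV alone. hsp-17 was the member that did not pass, with a joint mean of 7.87 ± 0.13 (SD, n = 3) against 7.65 ± 0.12 in control and 1 joint array within the control range (log2 difference 0.22, limma adjusted p = 0.0998). It passed with quantile normalization (0.54, limma adjusted p = 5.0e-04), with median centring (0.35, limma adjusted p = 0.0159, beside a median of 0.28 over all probe sets) and with array weights (0.26, limma adjusted p = 0.0303).

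TiO2 without UV changed none of the 6 genes by limma, and 0.00443% of all probe sets passed. hsp-16.41 came closest and was the member with an unadjusted p under 0.05, beside 1027 of the 22548 probe sets. Its 3 TiO2 arrays, at 6.40, 6.35 and 6.01, lay just below the lowest control array at 6.45. The difference was −0.66 (95% interval −1.07 to −0.24, limma adjusted p = 0.713), and the adjusted p ranged from 0.0545 to 1 over the alternatives. The other 5 genes overlapped between TiO2 and control. hsp-16.2 was at −0.27, hsp-17 at −0.22, hsp-12.6 at −0.08 and hsp-43 at −0.03 on the log2 scale, and hsp-12.3 was at 0.25, each with limma adjusted p = 1.

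TiO2 added to UV did not change any of the 6 genes by limma either, beside 0.0887% of all probe sets called. An unadjusted p under 0.05 was found for 2 of the 6, beside 1384 of the 22548 probe sets. For hsp-17 the 3 joint arrays, at 7.95, 7.72 and 7.95, lay below the 3 UV arrays, the lowest of which was at 8.02 (log2 difference −0.32, 95% interval −0.56 to −0.09, limma adjusted p = 0.536). For hsp-43 the highest joint array, at 8.36, overlapped the lowest UV array (log2 difference −0.30, limma adjusted p = 0.667). When arrays were weighted both passed, with limma adjusted p = 0.00892 for hsp-17 and 0.0467 for hsp-43, in a fit that called 1856 probe sets in place of 20. hsp-16.41 was at −0.30, hsp-16.2 at −0.03, hsp-12.6 at −0.01 and hsp-12.3 at 0.11.

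A contrast chosen after these values were seen averaged the TiO2 effect over worms with and without UV. It called 0.0665% of all probe sets and none of the 6 genes. An unadjusted p under 0.05 was found for 2 of the 6 genes, beside 1357 of the 22548 probe sets. hsp-16.41 was at −0.48 (95% interval −0.77 to −0.18, limma adjusted p = 0.452) and hsp-17 at −0.27 (95% interval −0.44 to −0.10, limma adjusted p = 0.462). With array weights they were at −0.62 and −0.30 and passed, with limma adjusted p = 0.0113 and 0.0357, in a fit that called 300 probe sets in place of 15. The remaining averages lay between −0.17 for hsp-43 and 0.18 for hsp-12.3.

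The neighbouring genes of a pair did not change by equal amounts. Within each array the log2 value of hsp-16.2 was set against that of hsp-16.41, which cancels any factor common to the array. The difference lay between 0.33 and 1.18 on the 6 arrays without UV and between 0.82 and 1.29 on the 6 UV arrays, so the arrays overlapped. Its mean moved from 0.77 ± 0.31 (SD, n = 6) to 1.08 ± 0.19, a shift of 0.31 toward hsp-16.2 (2-sided exact permutation test within TiO2 state, 400 arrangements, p = 0.02, adjusted over both pairs 0.02). Each SD here spans arrays with and without TiO2. The difference ranged from 0.33 to 0.76 in control and from 0.64 to 1.18 with TiO2 alone. It ranged from 0.82 to 1.10 after UV alone and from 1.075 to 1.29 after UV+TiO2. These partly overlapping ranges thus also lay higher with TiO2 than without, and that shift was not tested. For hsp-12.6 set against hsp-12.3 the difference lay between −1.51 and −0.39 without UV and between −2.03 and −1.64 with UV, without overlap. The −0.39 was that of control replicate 1, while the TiO2 arrays lay between −1.49 and −1.22. The mean moved from −1.199 ± 0.42 (SD, n = 6) to −1.82 ± 0.13, a shift of −0.62 (exact permutation p = 0.005, the smallest this design allows, adjusted 0.01), so that hsp-12.6 fell further than hsp-12.3. Both comparisons were chosen after the values were seen.

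Among 12 further genes of the family, listed from general knowledge of it, 8 had a probe set of their own. hsp-16.1, hsp-16.11, hsp-16.48 and hsp-16.49 did not, because the 2 probe sets for them carry several gene symbols, and they are not reported. After UV alone 1 of the 8 rose and 5 fell, beside 27.5% of all probe sets higher and 23.1% lower, and their median log2 difference was −1.55 beside 0.11. The Hsp12 genes moved as hsp-12.3 and hsp-12.6 did. hsp-12.1 fell from 8.77 ± 0.15 (SD, n = 3) to 5.999 ± 0.33, a log2 difference of −2.78. hsp-12.2 fell from 11.39 ± 0.13 to 9.11 ± 0.17, a log2 difference of −2.29. hsp-25, whose protein has been located in muscle and pharynx, fell by 1.52 on the log2 scale, hsp-16.20 by 1.59 and ZK1128.7 by 2.01. Y55F3BR.6 rose from 9.02 ± 0.11 to 9.99 ± 0.08, a log2 difference of 0.96. For these 6 genes the UV and control arrays did not overlap and limma's adjusted p was at most 3.3e-06.

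hsp-16.20, despite its number, moved against hsp-16.2 and hsp-16.41. It went from log2 values of 6.79, 7.01 and 6.77 in control to 5.24, 5.39 and 5.19 after UV. hsp-16.21 was among the dim probe sets, with 4.19 ± 0.12 in control and 4.31 ± 0.10 after UV, and did not pass (log2 difference 0.12, limma adjusted p = 0.301). With median centring it passed at 0.30 (limma adjusted p = 0.00914), close to the median of all probe sets under that scaling (0.29). sip-1, made in oocytes and embryos, stood at 14.25 ± 0.05 in control and 14.21 ± 0.04 after UV, and its second probe set was at a log2 difference of 0.01. Its main probe set was at or above the 99.8th percentile of every array. In worms that carried TiO2, UV again raised 1 and lowered 5 of the 8 genes, with hsp-12.1 at −3.45, hsp-12.2 at −2.23, hsp-25 at −1.67, ZK1128.7 at −1.39, hsp-16.20 at −1.08 and Y55F3BR.6 at 0.78. TiO2 without UV called none of the 8 by limma, and hsp-12.2, hsp-16.20 and ZK1128.7 had an unadjusted p under 0.05. So had 1027 of the 22548 probe sets.

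**Figure D4:**
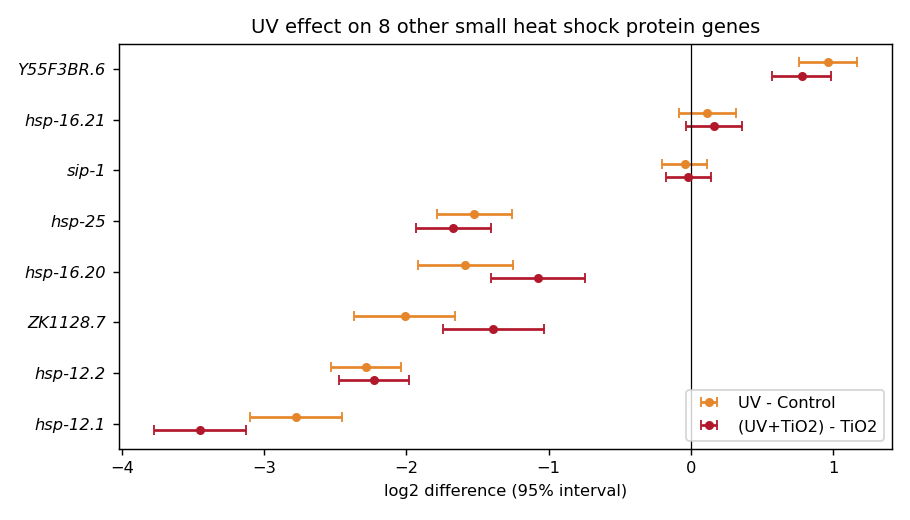
Log2 difference made by UV (horizontal axis, points with 95% intervals from limma) without TiO2 and with TiO2 for 8 further small heat shock protein genes (vertical axis). hsp-12.1, hsp-12.2, ZK1128.7, hsp-16.20 and hsp-25 lie below 0 in both comparisons and Y55F3BR.6 above 0, while the intervals of sip-1 and hsp-16.21 include 0.

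Among the regulators of the family, hsf-1, the gene of the heat shock factor, had log2 values of 8.31, 8.50 and 8.17 in control and 8.95, 8.81 and 8.61 after UV and rose 1.38-fold (log2 difference 0.47, limma adjusted p = 0.00404). hsb-1, whose protein binds and restrains HSF-1, was at a log2 difference of 0.28 and did not pass (limma adjusted p = 0.0514). It passed in 5 of 20 alternatives, over which the adjusted p ranged from 0.0062 to 0.171. daf-16 fell 1.48-fold, from log2 values of 9.14, 9.42 and 9.35 to 8.75, 8.76 and 8.72 (log2 difference −0.56, limma adjusted p = 3.1e-04). Of 18 genes of HSF-1 and insulin signalling, all measured, 6 rose and 5 fell (median 0.33), shares near the 27.5% and 23.1% of all probe sets that passed higher and lower. Median centring gave 10 and 5, beside 12231 and 4175 of all 22548 probe sets. Those with the smallest p were pqm-1 (−1.78), a zinc finger factor that acts opposite to DAF-16, the kinase genes sgk-1 (−1.38) and akt-2 (−1.80), and ftt-2 (−1.07), whose 14-3-3 protein holds DAF-16 in the cytoplasm. In worms with TiO2 UV gave a log2 difference of 0.46 for hsf-1 and −0.46 for daf-16, and both passed.

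Hsp70 chaperones take over clients held by small heat shock proteins. hsp-70, a strongly heat-inducible gene, had log2 values of 5.76, 5.15 and 5.20 in control and 8.77, 8.37 and 7.98 after UV, an 8.01-fold rise. In control it lay between the 24.5th and the 38.4th percentile of all probe sets, so its height above background there is not known. F44E5.4 and F44E5.5, further Hsp70 genes, had no probe set of their own. Of 17 listed genes of cytosolic chaperones and co-chaperones 14 were measured, and 7 rose and 1 fell, beside 27.5% and 23.1% of all probe sets (median 0.38, beside 0.11). Median centring gave 9 and 1, beside 12231 and 4175 of all 22548 probe sets. The rises included sti-1 (1.19), which links Hsp70 to Hsp90, the nucleotide exchange factor gene bag-1 (1.01) and chn-1 (0.90), a ubiquitin ligase of chaperone clients.

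Markers of tissues and stages moved in the same comparison, and whole-worm RNA cannot tell fewer cells of a type from less RNA per cell. The counts below stand beside 27.5% of all probe sets higher and 23.1% lower after UV alone, with a median of 0.11. After UV alone all 15 measured intestinal markers fell (median log2 difference −1.47), and their summed level went from a log2 range of 15.62 to 15.78 in control to 13.56 to 13.70. Late embryonic and larval markers, of which 16 were measured, fell in 11 cases and rose in 2 (median −1.60), and their summed level went from 15.20 to 15.29 in control to 14.53 to 14.62. Of 20 neuronal markers 14 fell and 2 rose (median −0.87), with a summed level of 13.31 to 13.40 in control and 12.39 to 12.49 after UV. Of 18 body wall muscle markers 9 fell and 3 rose (median −0.14). With median centring their median was 0.04, beside 0.29 over all probe sets. Their summed level was 16.13 to 16.21 in control and 16.08 to 16.16 after UV. Of 17 sperm markers 16 rose and none fell (median 1.60), and their summed level went from 12.67 to 13.50 in control to 14.78 to 14.99. Of 20 oocyte and germline markers 13 rose and 1 fell (median 0.37), with a summed level of 16.21 to 16.27 in control and 16.50 to 16.55 after UV. Of 9 measured markers of the adult soma 5 rose and 3 fell (median 0.78), with a summed level of 15.77 to 15.92 in control and 15.72 to 15.85 after UV. The intestinal, larval and neuronal markers mostly fell, as hsp-12.3, hsp-12.6 and hsp-43 did. Most sperm and oocyte markers rose, as hsp-16.2, hsp-16.41 and hsp-17 did. Those of body wall muscle (9 fell, 3 rose) and of the adult soma (5 rose, 3 fell) were more divided. The part of these tissues in the differences of the 6 genes was not tested.

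The genes whose profile over the 12 arrays was most like that of each member were found by Pearson's r, as a description. The 12 arrays share the split by UV and their normalization, and the part of either in r was not tested. For hsp-16.2 they were C49G7.10 (r = 0.992), Y58A7A.5 (0.990) and clc-19, a claudin-like gene (0.988). For hsp-16.41 they were irg-8 (0.989), an infection response gene, glrx-10 (0.984), a glutaredoxin gene, and rpt-2 (0.982), which encodes an ATPase subunit of the proteasome. hsp-17 had the least company, with 3 genes above an r of 0.95, namely col-93 (0.972), F15E6.4 (0.957) and kin-15 (0.954), against 475 genes for hsp-16.2 and 159 for hsp-16.41. The genes that fell had more, with 1524 for hsp-12.3, 1512 for hsp-12.6 and 908 for hsp-43. hsp-12.3 was most like Y22D7AL.15 (0.997), the aquaporin gene aqp-2 (0.997) and W07G4.5 (0.996). hsp-12.6 was most like the neuropeptide-like gene nlp-47 (0.998), the synaptic SNAP-25 gene ric-4 (0.997) and F08F3.4 (0.996), and hsp-43 was most like the ferritin gene ftn-2 (0.994), the histidine ammonia-lyase gene haly-1 (0.993) and ZC373.2 (0.993).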

How the data were processed

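The authors deposited 1 table of log2 expression values, 1 column per array. Per the labels' protocols, RNA was purified on RNeasy columns and 300 ng per sample was amplified and labelled with biotin. Of the tools, GCOS, the Affymetrix Expression Console and RMA are listed, per the submitters' processing notes, and the sources used here give no versions. RMA quantile-normalizes arrays, so a loss of RNA common to most genes would not show. Array medians lay between 6.361 and 6.625.

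Of 22625 probe sets 77 control probe sets were left out. Symbols were those of the platform annotation (20766 probe sets with 1 symbol, 887 with several, 895 with none). Of the probe sets with 1 symbol, 20701 matched a RefSeq gene number (assembly WBcel235, names and gene order only). No symbol changed through this match. Where a listed gene had several probe sets, the brightest by its mean over all arrays was used. All 6 probe sets described lay above the lowest 30% by mean.

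Group means were fitted to all 12 arrays and all 22548 probe sets with limma 3.58.1 in R 4.3.3, without a replicate block, with Benjamini-Hochberg adjustment over all probe sets. The number of arrays limits the precision, and a log2 difference had a median SE of 0.12. Over 18 pairs of same-numbered arrays of different groups, the deviations from group means correlated from −0.714 to 0.501. Over pairs with different numbers they correlated from −0.509 to 0.618. These broad, overlapping ranges do not decide whether the numbers pair the arrays.

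Genes named are the 6 members, the 8 measured further family members, 4 fixed regulators and chaperones, up to 4 per list with the smallest p, and the 3 genes most like each member. The members and lists were chosen with earlier results of these data known. Alternatives were quantile normalization, median centring, a filter on low values, a prior variance that follows the level, array weights, a replicate block, the array SD as a covariate, a fit to the compared groups alone, and leaving out single arrays.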

Additional observations from a re-analysis of the deposited data

How the results depend on the processing

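The directions and calls of the 6 genes for UV against control and for UV+TiO2 against TiO2 held under every alternative run, with log2 differences for UV against control of 1.96 to 2.28 for hsp-16.2, 1.503 to 1.91 for hsp-16.41, 0.50 to 0.76 for hsp-17, −3.12 to −2.87 for hsp-12.3, −3.96 to −3.47 for hsp-12.6 and −1.17 to −0.96 for hsp-43. The within-array shifts of both neighbouring pairs kept their direction and an exact permutation p under 0.05 without any 1 array. With the replicate block, as without it, 6 of the 6 genes were called for UV alone and 5 for the joint exposure against control, 6 for the joint exposure against TiO2, and 0 for the other comparisons. Array weights called 2 of the 6 genes for UV+TiO2 against UV and 2 for the averaged TiO2 effect, and the cause was not tested. Over all probe sets, TiO2 against control called 1, and 0 with quantile normalization, median centring, the filter, the other prior, the replicate block or only the groups compared, 28 with array weights, and 0 to 4 without 1 array. UV+TiO2 against UV called 20, 1856 with array weights, 32 with the array SD as a covariate and 2 to 69 without 1 array. The interaction called 0, 1 with the other prior and 220 with array weights. The averaged TiO2 effect called 15, 8 with quantile normalization, 9 with median centring, 300 with array weights, 5 with the replicate block, 35 with the SD covariate and 3 to 31 without 1 array. Median centring called 12231 probe sets higher and 4175 lower for UV against control, against 6198 and 5216. No detection calls were given, so how far hsp-12.6 after UV stood above background is not known.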

Other observations

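Within groups, the deviations of the 12 arrays from their group means ran together most for hsp-16.2 and hsp-17 (r = 0.85) and for hsp-16.2 and hsp-16.41 (r = 0.68). Pairs of a gene that rose and one that fell had no common sign. With hsp-16.2, hsp-16.41 and hsp-17 in turn, r was −0.42, −0.29 and −0.14 for hsp-12.3. It was 0.498, 0.425 and 0.449 for hsp-12.6 and 0.19, −0.07 and 0.53 for hsp-43. hsp-12.3 and hsp-12.6, which lie side by side and fell together, had an r of 0.27. These are descriptions over 12 arrays that share their normalization. None of the 8 further family genes passed for UV+TiO2 against UV. Among them hsp-12.1 was at a log2 difference of −0.79 (limma adjusted p = 0.0837). Its log2 values were 6.02, 6.32 and 5.66 after UV alone and 5.13, 5.13 and 5.35 after UV+TiO2, without overlap.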
